A study of Mus musculus with 12 samples.

Results

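The genes described here encode 6 basic leucine zipper factors of the MAF and BACH families, namely Maf, Maff, Mafg, Mafk, Bach1 and Bach2, and the values are chromatin accessibility in brain macrophages of bone marrow chimeras. All ATAC-seq peaks that the deposited annotation assigned to one of these genes were taken, which gave 94 of 60288 peaks in untreated mice and 98 of 54953 peaks in mice injected with lipopolysaccharide (LPS), a bacterial cell wall component that activates macrophages. The chimeras were C57BL/6J mice labelled wild type that had been irradiated with 950 cGy and had received congenic wild-type bone marrow. Graft-derived macrophages carried the CD45.1 allele and host microglia carried CD45.2, and both were sorted from the same brain as CD11b-positive cells with low CD45 and without Ly6C/G. Groups were CD45.1 and CD45.2 cells of 3 untreated mice (numbered 4, 5 and 6) and of 3 mice (numbered 1, 2 and 3) that had received 2.5 mg/kg LPS and were killed 12 h later. Brains were taken 9 months after transplantation, with or without LPS, although the labels name 3.5 months as well and assign neither interval to single mice. Host cells had been irradiated and graft-derived cells had not, so origin and irradiation cannot be told apart.

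MAF factors bind DNA as dimers at a long palindromic element built around an AP-1 site. Maf is a large member with its own activation domain and acts in macrophages on cell renewal and on Il10, whereas the small members Maff, Mafg and Mafk lack such a domain and depend on a partner. With NRF2 (encoded by Nfe2l2) they activate antioxidant response elements, and with BACH1 or BACH2 they repress them. BACH1 is a haem-sensing repressor of Hmox1, the haem oxygenase gene, and BACH2 is known as a repressor of effector programmes in lymphocytes and in tissue macrophages. ATAC-seq reads where a transposase can cut open chromatin, so the values below speak of accessible sites near these genes and not of their RNA or protein.

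Most peaks lay far from the annotated starts. Of the 94 untreated peaks 67 (71.3%) were intergenic, against 32.6% of all peaks, and 8 lay in promoters. Maf had 34 peaks in untreated and 40 in LPS-treated mice, Bach2 had 32 and 30, Bach1 had 16 and 17, Maff 6 in both, Mafg 4 in both, and Mafk 2 and 1. Maf is a gene of 24853 bp on the minus strand of chromosome 8 (mm9, 118206842 to 118231694), and 30 of its 34 untreated peaks lay past its 3′ end, up to 611182 bp from its start. The farthest 5 lay inside Wwox, the next gene. Peaks were assigned to the nearest start, so for all 30 the assignment to Maf rests on distance alone. Bach2 lies on the plus strand of chromosome 4, and the start used by the deposited annotation is internal to the GENCODE gene, which begins at 32325779. Of the 32 untreated Bach2 peaks 27 were upstream of the annotated start and inside the GENCODE gene, although most carried the label intergenic. Positions are given below in bp from the start used in the files, with negative values upstream.

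The sequences on which the comparisons turn are shown first, from the reference genome of the build used in the files (NCBIM37, which is mm9), 5′ to 3′ on the plus strand. Capitals mark matches on either strand to any of 6 motifs. These were the BACH-MAF element TGACTCAGC, the antioxidant response element core TGACNNNGC, the AP-1 site TGANTCA, the PU.1 site GAGGAAGT, the NF-kappaB site GGGNNTTTC and the CEBP site TTGCNNAA, and the first of these contains the second and the third. The first 6 sequences are the untreated peaks that differed between the populations at an adjusted p below 0.01.
Maf at 283631 bp, chr8:117947087-117947240: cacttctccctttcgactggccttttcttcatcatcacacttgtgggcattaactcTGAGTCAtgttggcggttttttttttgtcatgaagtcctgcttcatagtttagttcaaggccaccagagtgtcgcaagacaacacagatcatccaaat
Maf at 184171 bp, chr8:118046565-118046682: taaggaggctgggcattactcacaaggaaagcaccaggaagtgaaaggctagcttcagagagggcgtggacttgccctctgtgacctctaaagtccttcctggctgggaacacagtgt
Maf at 106900 bp, chr8:118123813-118123976: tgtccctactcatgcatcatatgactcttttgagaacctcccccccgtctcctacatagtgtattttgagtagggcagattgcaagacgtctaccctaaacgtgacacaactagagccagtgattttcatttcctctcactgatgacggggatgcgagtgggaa
Bach2 at 64632 bp, chr4:32568956-32569129: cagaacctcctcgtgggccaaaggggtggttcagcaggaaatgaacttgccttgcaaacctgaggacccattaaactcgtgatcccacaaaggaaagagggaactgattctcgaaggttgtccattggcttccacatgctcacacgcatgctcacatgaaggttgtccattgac
Bach2 at -65350 bp, chr4:32438976-32439144: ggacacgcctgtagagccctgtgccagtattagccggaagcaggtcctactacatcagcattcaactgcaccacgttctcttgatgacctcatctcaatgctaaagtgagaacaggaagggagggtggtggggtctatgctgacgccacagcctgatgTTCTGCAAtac
Bach2 at -44073 bp, chr4:32460258-32460417: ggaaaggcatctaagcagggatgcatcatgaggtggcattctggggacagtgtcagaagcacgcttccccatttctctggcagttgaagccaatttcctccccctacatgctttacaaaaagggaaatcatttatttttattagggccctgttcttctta
The AP-1 match in the Maf peak at 283631 bp and the CEBP match in the Bach2 peak at -65350 bp were the motif matches among these 6. AP-1 matches stood in 6.23% of all untreated peaks and CEBP matches in 7.12%.

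The next pair are the Bach2 intervals with the highest minimum LPS effect over both populations, taken from the LPS-treated mice.
Bach2 at -25977 bp, chr4:32478332-32478535: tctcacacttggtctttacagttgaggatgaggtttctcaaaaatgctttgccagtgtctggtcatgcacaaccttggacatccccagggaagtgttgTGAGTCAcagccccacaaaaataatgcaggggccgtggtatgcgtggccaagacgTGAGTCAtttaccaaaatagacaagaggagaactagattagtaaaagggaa
Bach2 at -128844 bp, chr4:32375441-32375691: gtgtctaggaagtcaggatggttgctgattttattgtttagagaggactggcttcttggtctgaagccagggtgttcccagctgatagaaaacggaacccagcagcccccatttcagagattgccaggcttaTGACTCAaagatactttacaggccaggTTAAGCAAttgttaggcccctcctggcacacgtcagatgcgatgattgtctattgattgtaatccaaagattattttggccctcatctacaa
Both hold AP-1 matches, the first in 2 places, and the second also holds a CEBP match. The last 3 are the LPS intervals with a full BACH-MAF element, the site these factors themselves recognise.
Mafg at 629 bp, chr11:120494132-120494332: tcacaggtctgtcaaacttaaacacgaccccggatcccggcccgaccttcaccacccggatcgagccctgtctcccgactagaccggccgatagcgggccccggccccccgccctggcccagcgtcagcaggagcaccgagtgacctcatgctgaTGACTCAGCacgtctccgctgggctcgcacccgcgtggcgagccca
Bach1 at 1047 bp, chr16:87700115-87700377: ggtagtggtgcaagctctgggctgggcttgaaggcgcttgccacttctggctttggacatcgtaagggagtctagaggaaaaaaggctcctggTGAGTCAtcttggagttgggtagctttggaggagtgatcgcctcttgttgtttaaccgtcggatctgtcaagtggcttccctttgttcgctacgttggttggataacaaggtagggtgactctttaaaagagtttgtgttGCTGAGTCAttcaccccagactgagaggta
Maf at 437126 bp, chr8:117793591-117793745: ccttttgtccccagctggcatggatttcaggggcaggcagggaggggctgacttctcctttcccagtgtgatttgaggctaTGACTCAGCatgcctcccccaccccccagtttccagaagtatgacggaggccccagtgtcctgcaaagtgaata
The element occurred in 3 of 98 member peaks (3.06%) and in 1.11% of all peaks after LPS. In the Mafg and Bach1 genes it lay in intron 1, and the Maf peak lay in an intron of Wwox. None of the 3 differed between the populations, with adjusted p of 0.803, 0.994 and 0.391 for Mafg, Bach1 and Maf.

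Libraries of untreated mice held 8392877.5 to 9107770.0 tags and those of LPS-treated mice 2966364.0 to 6556594.5. The host library of untreated mouse 4 stood apart, with 9.30% of its tags in its own peaks against 17.6% to 27.2% in the other 5 untreated libraries. Tag counts below were divided by the size factor of each library and are called normalised tags, and differences are log2 CD45.1 over CD45.2 from DESeq2 with its standard error (SE). A peak was called when its adjusted p was below 0.01 and it differed more than 4-fold. Each merged table was scaled alone. The summed peaks of the macrophage genes Spi1, Csf1r, Cx3cr1 and Itgam did not pass an adjusted p of 0.05 in untreated mice, with log2 differences of -0.05, 0.23, -0.21 and 0.02. The microglia gene Sall1 was lower in CD45.1 cells, at 123, 187 and 23.2 normalised tags against 989, 1115 and 1022, while Tmem119, P2ry12, Siglech and Slc2a5 did not pass (log2 -0.27 to 0.03). All 3 neuron genes were lower as well, with a sum of 27.5 to 39.4 against 171 to 202, and Syt1 was at 0 in 2 of 3 CD45.1 libraries. Lower in CD45.1 cells were also Aldh1l1 and Slc1a2 of 3 astrocyte genes (list sum 186 to 241 against 286 to 363), Mog of 3 oligodendrocyte genes (886 to 913 against 938 to 962) and S100a9, the only neutrophil gene of 3 with a peak (12.2 to 26.9 against 23.1 to 55.1). Of 3 T cell genes Cd3d (list sum 121 to 160 against 94.3 to 98.0) was higher in CD45.1 cells, and so was the B cell gene Ms4a1 (93.3 to 116 against 27.4 to 34.8), while the defining genes Cd3e and Cd79a had no peak. After LPS the neuron sum was 15.6 to 16.8 against 53.7 to 93.4, and Sall1, Snap25, Syt1, Mog and Ms4a1 passed in the same directions. Apart from the macrophage genes these genes moved with the population in untreated mice where they passed, and their part in the differences below was not tested. In sorted cells, fewer cells with an open site and less opening per cell cannot be told apart.

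The first question was whether graft-derived and host cells differ in the accessibility of these genes as a whole, and they did not differ past the threshold. Summed over all peaks of a gene, none of the 6 genes passed an adjusted p of 0.05 in untreated mice, where 14.8% of all genes did, or after LPS, where 7.07% did. No member reached an unadjusted p of 0.05 with DESeq2 in either comparison, and none passed an adjusted p of 0.05 with edgeR. Maf gave 1248, 1330 and 1329 normalised tags in CD45.1 and 1092, 1189 and 1203 in CD45.2 cells of untreated mice 4, 5 and 6. Its groups did not overlap, but the difference was small, with a log2 value of 0.16 (SE 0.0843, adjusted p = 0.229, n = 3 each). Bach2 gave 1137, 1154 and 1099 in CD45.1 and 1246, 1236 and 1252 in CD45.2 cells, a log2 difference of -0.14 (SE 0.0808, adjusted p = 0.306). Bach1 gave a log2 difference of -0.11 (SE 0.0918), Maff -0.01 (SE 0.143), Mafg 0.15 (SE 0.153) and Mafk 0.24 (SE 0.195). After LPS the 6 log2 differences lay between -0.23 for Mafg and 0.27 for Maf, with SE of 0.137 to 0.290.

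No difference at the promoters of the members passed the test. By DESeq2 none of the 8 promoter peaks tested in untreated mice and none of the 7 after LPS passed an adjusted p of 0.05, where 5.01% and 2.17% of all promoter peaks did. With so few promoters tested, a count of 0 cannot be told apart from these shares. At an unadjusted p of 0.05 none passed in untreated mice (9.41% of all promoter peaks) and 1 after LPS (7.31% of all), and no member promoter was among the peaks that edgeR found at an adjusted p of 0.05. Bach1 had the promoter with the most tags, at 222, 192 and 216 normalised tags in CD45.1 and 263, 197 and 202 in CD45.2 cells of untreated mice (log2 -0.05, SE 0.152, adjusted p = 0.914). The Mafk promoter gave 119, 84.9 and 131 against 107, 113 and 97.0 (log2 0.08, SE 0.203). The ranges overlapped for both genes. The Mafg promoter gave 69.5, 61.6 and 83.9 against 68.0, 69.7 and 55.2 (log2 0.15, SE 0.238), and the Maff promoter peak with the most tags gave 45.7, 57 and 71.9 against 71.3, 55.0 and 51.5 (log2 -0.02, SE 0.262). The strongest Maf peak of untreated mice lay just outside the promoter class at -1029 bp, which is -129 bp from a GENCODE start, and gave 152, 134 and 130 against 137, 113 and 112 (log2 0.22, SE 0.177, adjusted p = 0.533). Maf also had 3 promoter peaks, of which the one at -95 bp gave 38.2, 40.6 and 41.9 against 27.9, 29.4 and 42.2 (log2 0.25, SE 0.315). At that peak the highest host library exceeded every graft library. The other Maf promoter peaks, at -454 and -262 bp, went the other way, with log2 values of -0.50 (SE 0.331) and -0.34 (SE 0.326).

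Bach2 had no peak called a promoter. Its peak with the most tags in untreated mice, at -178821 bp, lay (by its centre) -190 bp from the first GENCODE start of the gene. It gave 142, 117 and 118 normalised tags in CD45.1 and 131, 87.5 and 97.4 in CD45.2 cells (log2 0.28, SE 0.197, adjusted p = 0.438). After LPS the promoter with the widest difference was that of Mafg, at 25.9, 7.83 and 14.6 in CD45.1 cells of mice 1, 2 and 3 against 23.6, 30.5 and 35.6 in CD45.2 cells. That difference had a log2 value of -0.87 (SE 0.429) and an adjusted p of 0.294. The Maff promoter, at 24.7, 9.78 and 15.1 against 23.6, 25.7 and 26.4, gave -0.59 (SE 0.424), and the Maf promoter, at 33.2, 39.1 and 25.5 against 44.7, 47.5 and 32.1, gave -0.34 (SE 0.330). All 3 pairs of ranges overlapped. The Maf promoter interval after LPS, at -425 bp, overlaps the untreated peaks at -454 and -262 bp and not the one at -95 bp. For Maff the peaks given also differ, at -145 bp untreated and -40 bp after LPS. The Mafk promoter gave 58.6, 52.2 and 47.6 against 33.3, 60.6 and 69.8 (log2 -0.11, SE 0.293). The Bach1 promoter gave 114, 133 and 123 against 141, 125 and 108 after LPS, a log2 difference of 0.00 (SE 0.199).

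**Figure D1:**
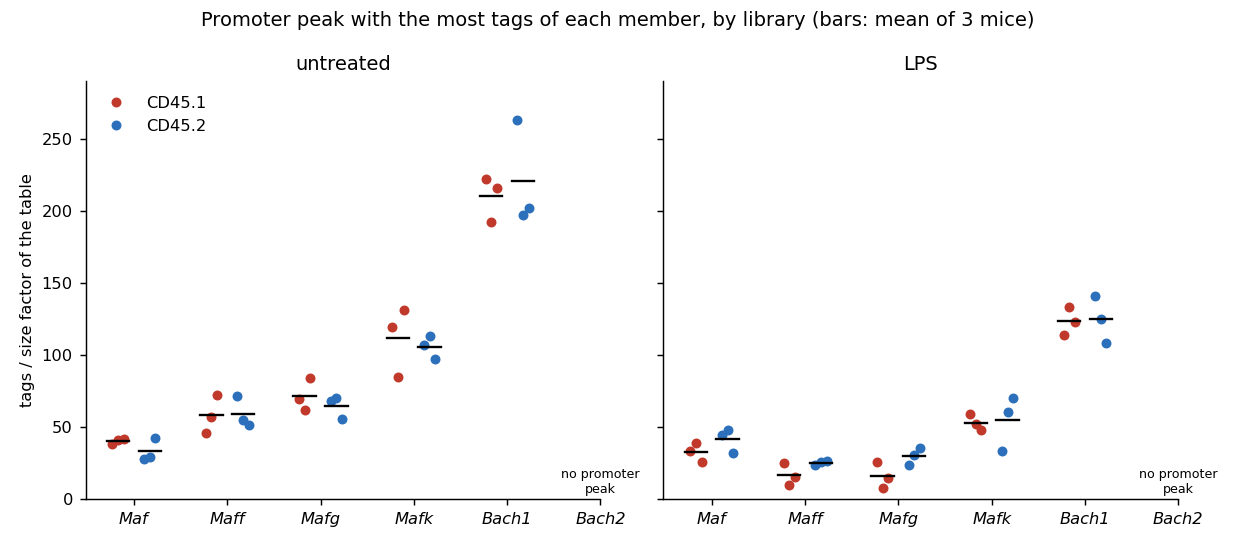
Normalised tags (tags divided by the size factor of each merged table) in the promoter peak with the most tags of each gene, for CD45.1 (red) and CD45.2 (blue) libraries of untreated (left) and LPS-treated (right) mice, with a bar at the mean of 3 mice. Size factors were set in each table separately. For Maf and for Maff the panels show different promoter intervals, so their values cannot be compared between panels. Bach1 has the highest promoter values, from 192 to 263 in untreated mice. The colours overlap in the left panel for every gene with a promoter peak, and Bach2 has none.

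The called differences between the populations lay in distal peaks of Maf and Bach2. Of 91 member peaks tested in untreated mice 4 were called, while 6.43% of all tested peaks were. Of these, 3 were higher in CD45.1 cells (3.78% of all peaks were called in that direction) and all 3 lay downstream of Maf. The other was higher in CD45.2 cells (2.65% of all) and lay in an intron of Bach2. The share of members called was not above that of all peaks. The same 4 peaks were called with the mouse as a block and with edgeR, which added the Maf peak at 430396 bp and called 7.24% of all peaks.

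The Maf peak at 283631 bp had the widest difference. It gave 54.6, 38.3 and 115 normalised tags in CD45.1 cells of mice 4, 5 and 6 and 4.10, 5.42 and 12.2 in their CD45.2 cells. All 3 graft libraries were above all host libraries, mouse 6 was highest in both, and none of the host libraries listed a peak there. The log2 difference was 3.26 (SE 0.708, adjusted p = 0.000104), a 9.55-fold difference, and mouse 6 moved it most, to a log2 value of 2.64 without its graft library and 3.89 without its host library. A second called peak of Maf, at 184171 bp, gave 22.4, 23.3 and 49.0 against 3.28, 6.19 and 7.30, a 5.32-fold difference (log2 2.41, SE 0.532, adjusted p = 0.000135). Again mouse 6 held the highest graft value, and without that library the log2 difference was 1.98 and the peak was no longer called (adjusted p = 0.0140). At 106900 bp from the Maf start, the third gave 29.4, 30.6 and 27.8 against 2.46, 5.42 and 8.12, a 5.01-fold difference (log2 2.32, SE 0.507, adjusted p = 0.000110). Here the graft libraries lay close together, with an SD of 1.41 around 29.2.

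The Bach2 intron peak at 64632 bp went the other way. It gave 6.06, 7.30 and 3.81 normalised tags in CD45.1 and 49.2, 35.2 and 32.1 in CD45.2 cells, so it was 6.61-fold higher in host cells (log2 -2.72, SE 0.485, adjusted p = 1.09e-06). All 3 host libraries and no graft library listed a peak there. A pair of Bach2 peaks upstream of the annotated start, both inside the GENCODE gene, differed in opposite directions at less than 4-fold. The peak at -65350 bp gave 39.6, 46.1 and 51.7 in CD45.1 and 127, 112 and 112 in CD45.2 cells (log2 -1.36, SE 0.224, adjusted p = 1.18e-07). The peak at -44073 bp gave 62.0, 69.4 and 80.0 in CD45.1 and 18.8, 20.5 and 20.3 in CD45.2 cells (log2 1.81, SE 0.305, adjusted p = 2.17e-07). One Bach2 region thus held a site more open in host cells and a site more open in graft-derived cells, while the sum over the gene did not pass its test.

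At an adjusted p below 0.05 with no fold limit, 12 of 91 member peaks differed (14.9% of all peaks did), 9 higher in CD45.1 cells (8.54% of all) and 3 higher in CD45.2 cells (6.32% of all). With the mouse as a block 6 of the 12 kept that threshold, and these were the 6 peaks given in full above. The count was 7 without the graft library of mouse 6 and 6 without the host library of mouse 5 or of mouse 6. Shares of all peaks under the block or without single libraries were not counted. Lost under the block were the Maf peaks at 92472 bp (log2 1.72, adjusted p 0.0106, blocked 0.0682) and 430396 bp (2.32, 0.0200, blocked 0.118), the Mafk intron peak at 2099 bp (1.42, 0.0246, blocked 0.110), the Bach1 peak at -34884 bp (0.99, 0.0222, blocked 0.110) and the Bach2 peaks at -137417 bp (-1.44, 0.0136, blocked 0.0640) and -166363 bp (0.85, 0.0414, blocked 0.182). The Maf peak at 430396 bp, in an intron of Wwox, rested on mouse 6, with 6.53, 7.76 and 44.1 in CD45.1 and 2.46, 2.71 and 5.27 in CD45.2 cells, and without that graft library it had too few tags for the test. Mouse 6 was also highest in the Mafk intron peak, at 49.6 normalised tags against 18.7 and 21 in the other graft libraries, and the log2 difference without it was 0.85 (adjusted p = 0.444). In the Bach1 peak all 3 graft libraries (40.1, 42.9 and 51.2) were above the host libraries (18.8, 24 and 23.1). The median over the 91 member peaks was -0.03, that over all tested peaks 0.00, and 84.6% of member peaks differed less than 2-fold against 80.3% of all.

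**Figure D2:**
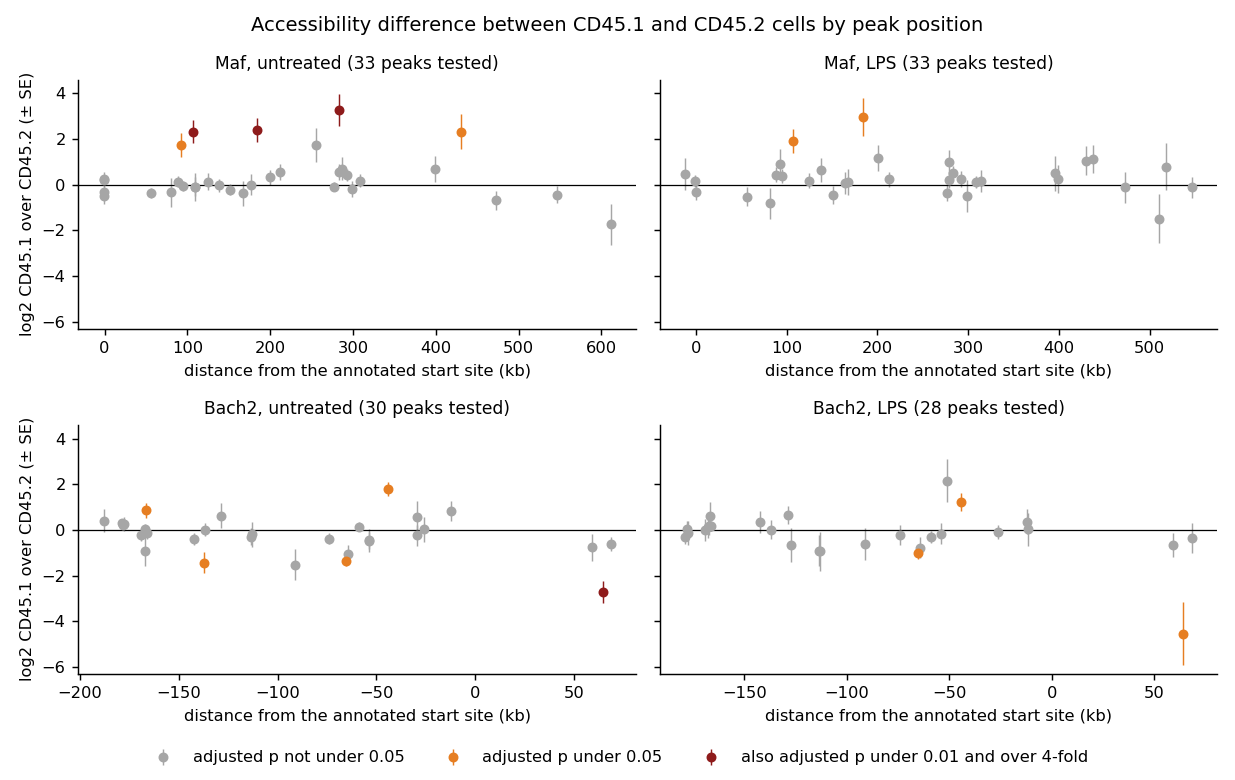
Log2 difference CD45.1 over CD45.2 with its SE (vertical axis) against the distance of each tested peak from the annotated start in kb (horizontal axis), for Maf (top) and Bach2 (bottom) in untreated (left) and LPS-treated (right) mice. Grey points did not pass an adjusted p of 0.05, orange points did, and dark red points also passed 0.01 and 4-fold. The 3 dark red Maf points are positive (log2 2.32 to 3.26), and the Bach2 points past the threshold lie on both sides of 0.

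The same comparison in the other 3 mice, after LPS, gave no called member peak. None of 89 member peaks passed an adjusted p of 0.01 with more than 4-fold by DESeq2, while 2.97% of all tested peaks did. Of the 89, 8 had an unadjusted p below 0.05, where 15.5% of all peaks did. By edgeR 2 were called, the Maf peak at 184185 bp and the Bach2 peak at 64079 bp, and 4.31% of all peaks were. At an adjusted p below 0.05, 5 of 89 differed (6.46% of all), 3 higher in CD45.1 cells (4.08% of all) and 2 higher in CD45.2 cells (2.38% of all). None of the 5 kept this threshold with the mouse as a block, and leaving out single libraries left 0 to 2 of the members past it. Shares of all peaks under these fits were not counted, so whether members lost more than other peaks cannot be told.

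Of the 5, 4 were the intervals matched to untreated peaks described above, with the same direction. Of the Maf peaks, that at 106864 bp gave 24.3, 36.5 and 15.6 normalised tags in CD45.1 cells of mice 1, 2 and 3 and 7.01, 9.16 and 4.75 in their CD45.2 cells (log2 1.91, SE 0.535, adjusted p = 0.00962, blocked 0.0618). That at 184185 bp gave 10.5, 18.3 and 14.6 in CD45.1 cells against 0.00, 0.00 and 4.16 in CD45.2 cells (log2 2.97, SE 0.851, adjusted p = 0.0117, blocked 0.172). The size of the latter was loosely set, with a log2 value of 4.29 (SE 1.69) with the mouse as a block, 2.40 without host mouse 2 and 5.98 without host mouse 3. In both Maf peaks every graft library exceeded every host library. The Bach2 peak at -65343 bp gave 30.7, 42.4 and 34.4 against 83.2, 66.7 and 64.4 (log2 -1.0, SE 0.281, adjusted p = 0.00951, blocked 0.0998). The Bach2 peak at -44092 bp gave 27.9, 35.2 and 41.0 against 14.9, 13.5 and 16.6 (log2 1.2, SE 0.394, adjusted p = 0.0391, blocked 0.176). Host cells were again higher at the first Bach2 site and graft-derived cells at the second. The fifth was the Bach2 intron peak at 64079 bp, which overlaps no untreated member peak and held 0, 1 and 0 tags in CD45.1 and 7, 5.5 and 13.5 in CD45.2 libraries. With 1 against 27 rounded tags, the ratio of host to graft was 24.3 (95% exact interval 4.01 to 995, counting error only), and the adjusted p was 0.0226 (blocked 0.0674). Its log2 value of -4.55 became -3.89 without graft mouse 1 and -5.69 without graft mouse 2. Only host mouse 3 had more than 10 tags, so the peak entered the test through the group where it was high. Without that library it had too few tags for the test. The interval and adjusted p of this peak are therefore given as a description and not as support.

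Of the 12 peaks at an adjusted p below 0.05 in untreated mice, 8 had a matched and tested interval after LPS, and all 8 had the same sign there, 4 of them past 0.05. The same counts over all peaks that passed in untreated mice were not made, so the members cannot be set against other peaks here. The Bach2 intron peak at 64632 bp had no matched interval. A narrower LPS peak at 64550 bp covers part of it and held 1.5, 1.5 and 1 tags in CD45.1 against 6, 10 and 9 in CD45.2 libraries, which was too few for the test. The remaining matched Maf peaks at 92469 bp and 430389 bp gave log2 values of 0.93 and 1.05 after LPS, and the Bach1 peak at -34848 bp gave 1.06, with adjusted p of 0.473 to 0.554. The matched interval of the Maf peak with the widest untreated difference, at 283635 bp, gave 0.51 (SE 0.300, adjusted p = 0.445).

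Whether LPS changed the difference between the populations was tested on 65 of 66 member peaks matched between the 2 tables (at least 50% overlap of both intervals), in 1 model of all 12 libraries. DESeq2 gave no adjusted p for the interaction, because of low counts, at the Maf peak at 176715 bp. The same held for the Bach2 peaks at -187982, -113065 and -90910 bp. One member, the Maf peak at 283631 bp, was past an adjusted p of 0.05 for the interaction, and 0.242% of all matched peaks were. On the common scale of the 12 libraries it gave 36.4, 25.7 and 75.6 in untreated CD45.1 and 2.72, 3.69 and 8.24 in untreated CD45.2 cells. After LPS it gave 60.4, 94.3 and 72.0 in CD45.1 and 51.7, 54.3 and 50.3 in CD45.2 cells. Untreated host libraries stood far below the other groups, and the means of the latter were 45.9 ± 26.3 (untreated graft), 75.6 ± 17.2 (LPS graft) and 52.1 ± 2.03 (LPS host; SD, n = 3 each). The LPS effect was 3.36 on the log2 scale in CD45.2 cells (SE 0.437, adjusted p = 2.90e-12, 10.3-fold) and 0.72 in CD45.1 cells (SE 0.322, adjusted p = 0.0964; 1.27 with adjusted p = 0.000501 without untreated graft mouse 6), and the interaction was -2.64 (SE 0.543, adjusted p = 0.00118). The interaction stayed past its threshold with the mouse as a block, and without host LPS mouse 1 it was -2.68 with an adjusted p of 0.0848. Without untreated host mouse 6 the interaction was -3.33 and the LPS effect in CD45.2 cells 4.05.

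**Figure D3:**
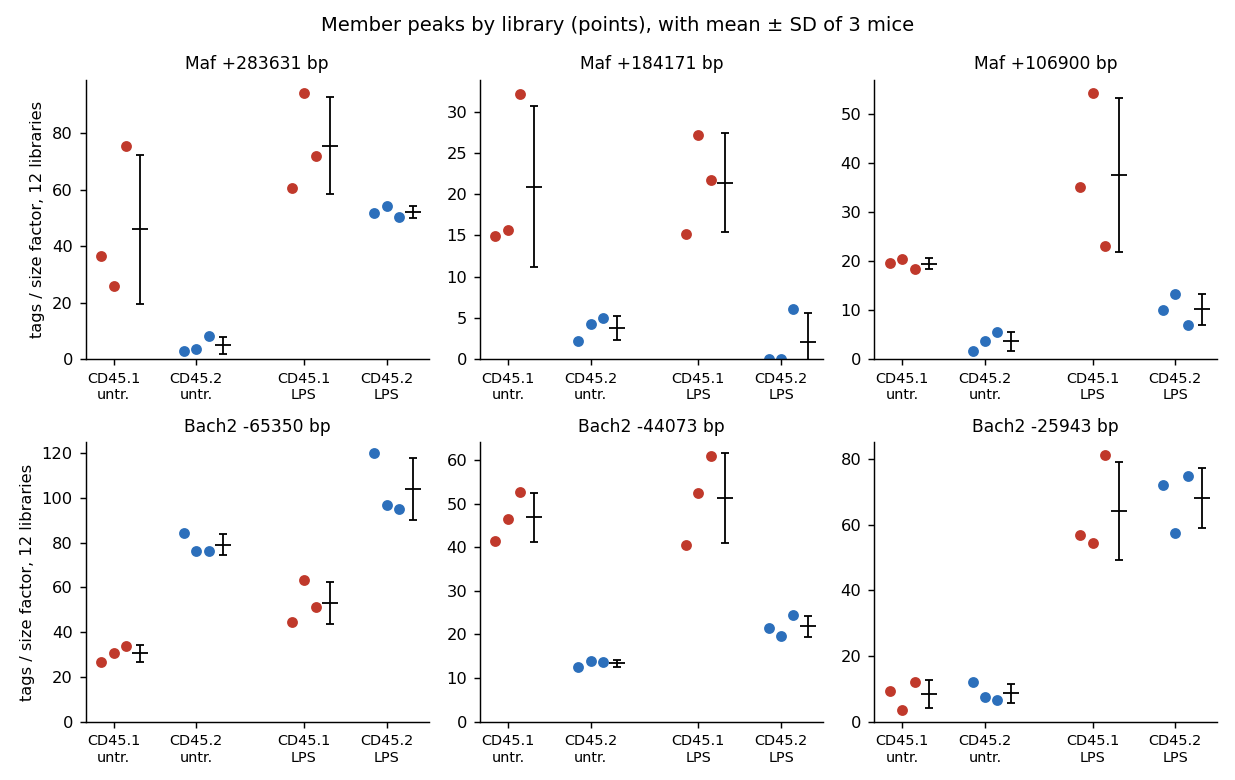
Tags divided by size factors of the 12-library model (vertical axis, from 0) in 6 matched Maf and Bach2 peaks, titled with gene and distance in bp, for CD45.1 (red) and CD45.2 (blue) libraries with and without LPS; black bars are mean ± SD of 3 mice. In the Maf peak at 283631 bp the untreated host points lie between 2.72 and 8.24 and the host points after LPS between 50.3 and 54.3.

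LPS-treated mice differed from untreated mice at several members in both populations. Treatments were given to different mice and counted in separate tables, so LPS, mouse and table cannot be told apart here. In CD45.1 cells 9 of 65 member peaks were raised by LPS (adjusted p below 0.05 and over 2-fold; 6.77% of all matched peaks were) and 4 were lowered (4.98% of all). In CD45.2 cells 8 were raised (7.68% of all) and 2 were lowered (3.70% of all), and 7 of 65 were raised in both (4.47% of all). These 7 were 3 Bach2 peaks, 3 Maf peaks and 1 Bach1 peak. With total tags as size factors 7 were raised (4.65% of all) and 0 lowered (2.02% of all) in CD45.1 cells, and 6 raised (4.83% of all) and 1 lowered (2.18% of all) in CD45.2 cells. Intervals were called separately in the 2 tables and were wider after LPS, with a median of 192 against 146 bp for members, so both widths are given, and with width as an offset (chosen after seeing the data) 5 of the 7 stayed raised in both populations. That fit had 6 members raised in both (3.46% of all), 7 raised (5.38% of all) and 6 lowered (3.33% of all) in CD45.1 cells, and 8 raised (6.14% of all) and 6 lowered (2.26% of all) in CD45.2 cells.

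Of the changes shared by both populations the widest was at the Bach2 peak at -25943 bp, whose LPS interval is printed above. It gave 9.34, 3.67 and 12.2 in untreated and 56.8, 54.4 and 81.1 in LPS-treated CD45.1 cells, and 12.0, 7.38 and 6.59 against 71.9, 57.5 and 74.8 in CD45.2 cells. The rise was 7.77-fold in graft-derived (log2 2.96, SE 0.351) and 8.35-fold in host cells (log2 3.06, SE 0.352), with intervals of 105 and 204 bp and log2 values of 2.27 and 2.37 with width as an offset. No untreated library overlapped any LPS library. The Bach2 peak at -128829 bp rose from 9.65, 9.49 and 7.52 to 39.3, 39.8 and 49.0 in CD45.1 and from 4.90, 6.06 and 6.59 to 22.7, 23.4 and 32.4 in CD45.2 cells (log2 2.24 and 2.16). Its intervals were 183 and 251 bp, and with width as an offset the values were 2.06 and 1.98. The Bach2 peak at -166212 bp rose from 35.2, 38.9 and 46.2 to 139, 155 and 119 in CD45.1 and from 53.9, 44.5 and 36.8 to 127, 126 and 112 in CD45.2 cells (log2 1.78 and 1.45, or 1.51 and 1.17 with width as an offset, over 127 and 186 bp). All 3 lie inside the GENCODE Bach2 gene, upstream of the start used in the files. The last was the Bach2 peak with the most tags after LPS, when the populations differed by 0.17 (SE 0.223, adjusted p = 0.830). For Maff the strongest LPS peak, an intron peak at 6406 bp, gave 34.4, 20.9 and 19.3 against 30.7, 33.6 and 20.5 in the population comparison (log2 -0.16, SE 0.393).

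The Bach1 peak at -62931 bp rose from 14, 12.9 and 7.88 to 42.2, 51.5 and 51.1 in CD45.1 and from 9.79, 10 and 7.42 to 37.8, 39.8 and 37.2 in CD45.2 cells. The log2 changes were 2.03 and 2.08, or 1.38 and 1.42 with width as an offset, its intervals being 99 and 188 bp. The Maf peak at 308693 bp rose from 38.0, 41.9 and 65.6 to 94.9, 101 and 154 in CD45.1 and from 25.6, 41.9 and 58.2 to 114, 99.2 and 105 in CD45.2 cells (log2 1.27 and 1.28, or 1.23 in both with width as an offset, over 147 and 183 bp). With total tags as size factors this peak lost its call in CD45.2 cells (1.05, adjusted p = 0.0846). It was the Maf peak with the most tags after LPS, when its population difference was 0.13 (SE 0.252, adjusted p = 0.893). The Maf peaks at 212322 bp (log2 1.36 and 1.63) and 124589 bp (1.13 and 1.07) also rose in both populations, but with width as an offset they gave 0.93 and 0.86 in CD45.1 cells, under 2-fold. That at 124589 bp also lost its call in CD45.2 cells without untreated host mouse 6 (0.82, adjusted p = 0.108) or host LPS mouse 2 (0.91, 0.0959), and fell under 2-fold in CD45.1 cells without untreated graft mouse 6 (0.93). With total tags as size factors it was called in neither population (adjusted p = 0.0871 in CD45.1 and 0.162 in CD45.2 cells). Bach1 and Bach2 peaks at -43780 and -53800 bp rose in CD45.1 cells (log2 1.08 and 1.45) and gave 0.37 and 1.07 in CD45.2 cells (adjusted p = 0.321 and 0.0516), and the interaction passed in neither (adjusted p = 0.868 and 0.993). The Bach2 call was lost without untreated graft mouse 4 or 5 (adjusted p = 0.0591 and 0.0560), and with total tags as size factors (1.43, 0.0714).

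Peaks lowered by LPS in CD45.1 cells were those of Maff at 9232 and 9396 bp, both in an exon (log2 -1.35 and -1.49), of Mafg in an intron at 879 bp (-1.07) and of Maf at 56474 bp (-1.04). In CD45.2 cells they were the Bach2 intron peak at 68589 bp (-1.36) and the Maf peak at 138339 bp (-1.04). The other population also gave negative values. In the order above, the first 4 peaks gave -1.17, -0.29, -0.68 and -0.89 in CD45.2 cells (DESeq2 adjusted p = 0.0530, 0.725, 0.181 and 0.00869). The Bach2 and Maf peaks gave -1.06 and -0.32 in CD45.1 cells (adjusted p = 0.0613 and 0.533). At none of the 6 did the interaction pass (adjusted p = 0.952 to 0.997). Each of these 6 lost its call without some single library of its population, with an adjusted p of up to 0.170 for Mafg without graft LPS mouse 3, and the Maff value at 9232 bp was -2.03 without graft LPS mouse 1. No peak passed both limits downwards in both populations, and with total tags as size factors none of the 4 in CD45.1 cells passed (adjusted p = 0.0559 to 0.105). Under that scaling the Maf peak at 138339 bp did not pass in CD45.2 cells (-1.18, adjusted p = 0.0986). With width as an offset both Maff values lost the call in CD45.1 cells (-1.06 and -1.07, adjusted p = 0.0729 and 0.0899), and so did Mafg (-0.67, 0.176) and Bach2 (-0.92, 0.0940). Mafk had no matched pair, since its promoter interval of 117 bp in the untreated table covered less than 50% of that of 243 bp in the LPS table.

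**Figure D4:**
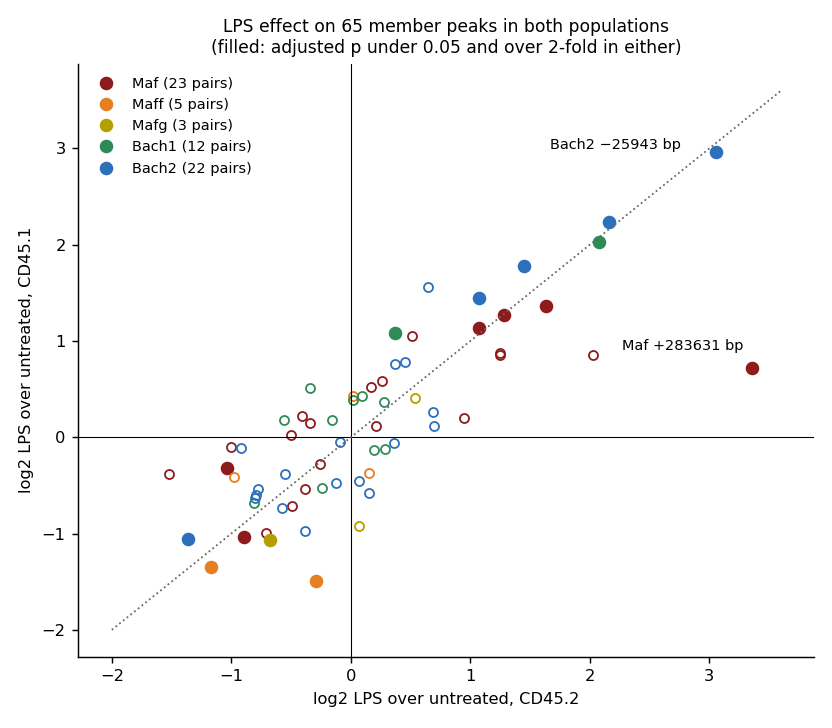
Log2 change with LPS in CD45.1 cells (vertical axis) against that in CD45.2 cells (horizontal axis) for the 65 member peaks matched between the tables, coloured by gene, with the line of equal change dotted. Filled points passed an adjusted p of 0.05 and 2-fold in either population. The Bach2 peak at -25943 bp lies at 3.06 and 2.96, and the Maf peak at 283631 bp lies off the line at 3.36 and 0.72.

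The AP-1 letters were common in the raised peaks. Among the LPS intervals of the 7 members raised in both populations 5 (71.4%) held TGANTCA, against 10 of 58 (17.2%) other matched member peaks. The shares over all matched peaks were 39.9% of the 1752 raised in both populations and 7.92% of the 37483 others, the same order as among the members. None of the 7 held the full BACH-MAF element (2.85% of all raised) and none the NF-kappaB letters (4.62% of all raised). In only 7 peaks such an absence cannot be told apart from these shares. The CEBP letters were held by 3 of the 7 (23.7% of all raised). The median length of the intervals was 204 bp for the 7 and 192 bp for the other members.

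Some member peaks were found under 1 treatment alone. Of 98 LPS peaks 17 were matched to none and were listed by no untreated library, and 6 of these were listed by at least 4 of the 6 LPS libraries. Among the latter, chosen after their values were seen, were the Maf peaks at 278685 and 314361 bp, the Bach1 intron peak at 26018 bp and the Mafg intron peak at 2907 bp. The Mafg peak lay -4 bp from a GENCODE start and was the strongest Mafg peak after LPS, at 48.1, 50.9 and 30.2 normalised tags in CD45.1 and 24.5, 47.1 and 43.6 in CD45.2 cells (log2 0.11, SE 0.329, adjusted p = 0.936). Of 94 untreated peaks 21 were matched to none and were listed by no LPS library, 8 of them by at least 4 untreated libraries. Over all peaks 39390 pairs were matched, of 60288 untreated and 54953 LPS peaks, and among the members 66 pairs of 94 and 98. How many of all peaks were listed under 1 treatment alone was not counted. Nothing particular to the members can therefore be read from these counts. LPS libraries were shallower, and the part of depth in these counts was not tested.

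The other genes of the system were compared by their summed peaks, on lists of partners, NRF2 and BACH targets and immune targets. Over all genes 14.8% passed an adjusted p of 0.05 in untreated mice and 7.07% after LPS. In lists this short, 1 or 0 genes passing cannot be told apart from these shares. The partners were Mafa, Nrl, Nfe2, Nfe2l1, Nfe2l2, Nfe2l3 and Keap1. Of these, 1 gene passed an adjusted p of 0.05 in untreated mice, Mafa, another large MAF gene, which was lower in CD45.1 cells at 178, 139 and 152 against 231, 210 and 222 normalised tags (log2 -0.49, SE 0.154, adjusted p = 0.0129). Nrl had no peak. Nfe2l2 gave a log2 difference of 0.11 (SE 0.0921) and Keap1, the NRF2 inhibitor, -0.23 (SE 0.118). None of the other partners named passed, and their log2 differences lay between -0.23 and 0.25. The targets were Hmox1, Nqo1, Gclc, Gclm, Slc7a11, Txnrd1, Srxn1, Fth1, Ftl1, Slc40a1, Me1 and Blvrb, which serve haem, iron and antioxidant metabolism. Of these 12 genes 1 passed, the cystine transporter gene Slc7a11, lower in CD45.1 cells at 337, 407 and 399 against 553, 565 and 573 (log2 -0.57, SE 0.111, adjusted p = 7.80e-06). Hmox1, the best known BACH1 target, gave 0.12 (SE 0.110, adjusted p = 0.632), and the ferritin gene Fth1 gave 0.31 (SE 0.121, adjusted p = 0.0641). The median over the targets was 0.01. Of the immune genes Prdm1, Il10, Il12b, Irf4, Cebpb and Csf1r, Il12b was higher in CD45.1 cells (log2 0.52, SE 0.149, adjusted p = 0.00491), while Il10, a Maf target, gave -0.29 (SE 0.152, adjusted p = 0.233) and Prdm1, a Bach2 target, 0.07 (SE 0.0926). After LPS none of the genes named in the 3 lists passed by DESeq2 or edgeR, and Mafa and Nfe2l2, but no target and no immune gene, had an unadjusted p below 0.05 by DESeq2. Nfe2l2 then gave 654, 648 and 625 in CD45.1 and 565, 521 and 446 in CD45.2 cells (log2 0.34, SE 0.143, adjusted p = 0.160), and its groups did not overlap.

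Over the 12 libraries, the 3 genes whose summed accessibility followed each member most closely were Anapc13, Tor1aip2 and Mcu for Maf (r = 0.988 to 0.990), Sema3b, Tinf2 and Arpc4 for Maff (0.990 to 0.991) and Ern1, Map3k3 and Mtch1 for Mafg (0.988 to 0.996). For Mafk they were Rassf1, Spop and Get4 (0.988 to 0.989), for Bach1 Creb1, Hmga2-ps1 and Fam105a (0.993 to 0.995), and for Bach2 Slmo1, Gm12830 and Etfb (0.996 for all 3). These are Pearson values of log2(normalised tags + 1) given as a description. The median over all 12323 genes compared was already 0.836 to 0.912, and the points share their table, treatment and depth.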

How the data were processed

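ATAC-seq libraries (12, from 6 mice) were made by the authors from sorted brain macrophages. The submitters' processing notes name bcl2fastq 2.17.1.14, Bowtie2, Picard 1.108, HOMER and build mm9, without stating their roles, and whether cut positions were shifted is not given in the sources used here. The deposited merged tables, 1 for untreated and 1 for LPS-treated mice, hold estimated counts (tags per peak in steps of 0.5, not normalised), with the nearest RefSeq start. The deposited peak lists of each library hold a HOMER score per peak (per the file headers, called at a false discovery rate of 0.001 and 4-fold over the local level) and were used for presence, total tags and the share of tags in peaks.

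Counts were rounded and tested with DESeq2 1.42.0 (R 4.3.3) on each whole table, for peaks with more than 10 tags in at least 1 library, without a mouse term. Benjamini-Hochberg adjustment ran over the tested peaks left by the low-count filter that DESeq2 applies by default. Peaks without an adjusted p counted as not passing in the shares given. Calls needed an adjusted p below 0.01 and more than 4-fold. Peaks of the 2 tables with at least 50% reciprocal overlap entered a model of population, treatment and their interaction; LPS and table cannot be told apart there. Tags were also summed per gene. edgeR 4.0.16 was an alternative, as were the mouse as a block, other filters and scaling, peaks within 100 kb, and leaving out each library. The DESeq2 population model and interaction model, without the block, were tested on simulated data, and edgeR was not. CD45.1 and CD45.2 libraries with the same number come from the same mouse by the study's design text; their deviations from the group means correlated at 0.081 to 0.087 in untreated and -0.066 to 0.149 in LPS-treated mice. The mice are the replicates.

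Named in full by rule were each gene's promoter peak and peak with the most tags and each called peak; other peaks that are named were chosen after their values were seen. The members and gene lists were chosen with earlier results of these data known. Depth limits the LPS libraries most, with a median of 8.00 to 23.5 tags per peak against 16.0 to 35.0, and 9.30% of tags in peaks in the host library of untreated mouse 4. Genes were placed with GENCODE vM1 on NCBIM37. A few genes of the marker and partner lists are not reported here.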

Additional observations from a re-analysis of the deposited data

Results flagged for a closer look

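The Maf peak at 283631 bp (mm9 chromosome 8, 117947087 to 117947240) is listed because the difference between graft-derived and host cells changed with LPS, by a test of that change itself. On the log2 scale the interaction was -2.64 (SE 0.543, DESeq2 adjusted p = 0.00118 over the matched peaks left by its low-count filter). CD45.1 cells were 9.55-fold higher in untreated mice, with all 3 graft libraries above all 3 host libraries (log2 3.26, and 2.64 without the graft and 3.89 without the host library of mouse 6), and after LPS the log2 difference was 0.51 (SE 0.300, adjusted p = 0.445). The LPS effect was 3.36 in CD45.2 cells, where all 3 LPS libraries were above all 3 untreated ones, and 0.72 in CD45.1 cells, where the groups overlapped. Over the fits that left out 1 library the interaction lay between -3.33 and -2.07, with an adjusted p of 0.000119 to 0.0848, the highest without host LPS mouse 1, and -3.33 was the value without untreated host mouse 6. Treatments were given to different mice and the intervals of 154 and 192 bp were counted in separate tables, and with the width of the intervals as an offset the interaction was -2.64 (adjusted p = 0.000925).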

How the results depend on the processing

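Of the 4 member peaks called in untreated mice, 2 were called with a mean count of at least 20 and 1 lay within 100 kb of a start, and leaving out single libraries gave 3 to 4. The 12 untreated members at an adjusted p below 0.05 became 7 with total tags as size factors, 6 within 100 kb, 18 with edgeR and 6 to 10 without single libraries. After LPS edgeR called 2 members and leaving out single libraries 0 to 1 (1 without graft or host mouse 3), and the 5 at an adjusted p below 0.05 became 1 with a mean count of at least 20, 3 within 100 kb and 0 to 2 without single libraries. Members with an interaction numbered 0 to 1 without single libraries. Members changed by LPS in CD45.1 cells numbered 13, 7 with total tags and 10 to 13 without single libraries, and in CD45.2 cells 10, 18 with any overlap as a match, 14 with edgeR and 8 to 12 without single libraries. With width as an offset, chosen after seeing the data, they numbered 13 and 14. Total tags moved the median of all peaks to 0.14 for the populations after LPS and to -0.15 for LPS in CD45.2 cells. Gene sums stayed at 0 members in every fit. The cause of these shifts was not tested, apart from the distance limit and the filters, which leave fewer peaks. Shares of all peaks were not counted for the fits without single libraries, the filters, the distance limit or any overlap as a match. Nor were they counted for total tags in the population comparisons, or for edgeR beyond the calls given above. For these settings a shift of the members cannot be set against that of all peaks.

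With the replicate block, which pairs both populations of a mouse, 6 untreated members and 0 LPS members had an adjusted p below 0.05. The share of all peaks under the block was not counted. The 4 calls, the interaction and the gene sums kept their side.

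Values that changed sign passed no test in either fit. With total tags they were the Maff peak at -145 bp (0.01) and sum (0.01) untreated, and after LPS the Maff peak at 6406 bp (0.00), the Mafk peak at -53 bp (0.01) and sum (0.01), the Bach1 peak at -49 bp (0.14) and the Bach2 sum (0.05). The Bach1 peak at -49 bp also gave 0.01 with edgeR and 0.00 with no filter. By the strongest peak alone the Bach2 sum gave 0.26 untreated (main fit -0.14) and 0.19 after LPS (main fit -0.09), and the Mafg sum 0.13 after LPS (main fit -0.23). With width as an offset the Maff peak at 9396 bp gave 0.13 for LPS in CD45.2 cells (main fit -0.29). Without single libraries the ranges crossing 0 were, untreated, Maff at -145 bp -0.18 to 0.13, Maff sum -0.11 to 0.07, Mafk at -88 bp -0.04 to 0.25 and Bach1 at -54 bp -0.13 to 0.06. After LPS they were Maf at 308695 bp -0.11 to 0.28, Maff at 6406 bp -0.47 to 0.02, Mafg at 2907 bp -0.09 to 0.33, Mafk at -53 bp -0.33 to 0.09, Mafk sum -0.30 to 0.12 and Bach1 at -49 bp -0.12 to 0.07.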
